A study of Mus musculus with 6 samples.

Results

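The sites described here are places on mouse chromatin that were listed as bound by wild-type p53 and had no listed counterpart for the p53 form named 3KR, and that lie in or beside a protein-coding gene. They were chosen by the summit positions in both deposited lists. A member is a WT summit with no 3KR summit within 200 bp that lies inside a protein-coding gene or within 1 kb of either of its ends. Of 1668 WT summits, 378 met the rule, or 22.7%. Another 398 WT-only summits on assembled chromosomes were intergenic, 458 WT summits in or at genes were shared with 3KR, and 3769 of the 6753 3KR summits were 3KR-only and in or at genes.

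p53 binding had been measured by ChIP-seq in epidermal basal progenitors, sorted for high a6 integrin and for EpCAM. All mice were 8 weeks old, with 3 libraries for p53WT and 3 for p533KR, and all cells met Nutlin-3a at 25 µM during tissue digestion, per the series' design text. Nutlin-3a blocks the ligase MDM2 and so stabilises p53, and 3KR is known as a mutant p53 with arginine in place of lysine residues that can be acetylated. The labels give no strain and no further allele or agent. Each genotype has 1 combined summit list, so no value of a single library and no spread between animals can be given. Peak lists hold no expression, so the sorted cell type could not be checked by its markers. Summit names carry the word Doxo in the 3KR list and a run name that ends in 1 in the WT list, which the labels do not explain. Sequencing depth is unknown, so a site missing from the 3KR list cannot be told apart from one that was not reached at the depth of that list.

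p53 is a transcription factor that binds DNA as a tetramer. Its response element is a pair of half-sites, each made of purines, a core that begins with C and ends with G, and pyrimidines. Its targets include genes that stop the cell cycle, start apoptosis, repair DNA, adjust metabolism and limit p53 itself. Basal epidermal cells also depend on the relative p63, which binds closely similar elements.

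Of the 378 summits, 20 fell inside a promoter window for which a sequence was at hand, namely the bases from 250 before to 50 after a RefSeq start site (build GRCm38.p6, whose chromosomes are those of mm10). These windows were searched on both strands for the p53 response element, taken as 2 half-sites of 10 bases with no spacer, each with 3 purines, a C, a pair of A or T bases, a G and 3 pyrimidines. The C and G of both half-sites had to be present and up to 3 mismatches were allowed over the 20 bases. The windows of Ccng1, Stox2, Zfp365, Gm14102 and Zdhhc1 held such a match. They are shown because they are the WT-only sites whose searched window held letters close to the response element. Each is a stretch of its 300-base window, chosen around the summit and the match, and is printed 5′ to 3′ on the strand of the named gene with the matching 20 bases in capitals.

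Ccng1 (chr11:40755320-40755526, minus strand): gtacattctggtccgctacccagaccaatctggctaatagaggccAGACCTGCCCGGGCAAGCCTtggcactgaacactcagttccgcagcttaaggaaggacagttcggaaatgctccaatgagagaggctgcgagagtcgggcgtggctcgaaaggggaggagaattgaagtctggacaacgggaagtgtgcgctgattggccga
Stox2 (chr8:47352417-47352547, minus strand): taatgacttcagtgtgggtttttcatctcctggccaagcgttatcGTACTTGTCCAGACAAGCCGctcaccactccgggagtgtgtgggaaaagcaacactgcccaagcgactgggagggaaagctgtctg
Zfp365 (chr10:67912651-67912770, minus strand): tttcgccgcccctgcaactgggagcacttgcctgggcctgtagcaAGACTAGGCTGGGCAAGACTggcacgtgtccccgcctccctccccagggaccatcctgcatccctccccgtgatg
Gm14102 (chr2:132945517-132945626, plus strand): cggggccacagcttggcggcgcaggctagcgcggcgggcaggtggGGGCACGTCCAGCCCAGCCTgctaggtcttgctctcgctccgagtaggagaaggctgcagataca
Zdhhc1 (chr8:105497013-105497158, minus strand): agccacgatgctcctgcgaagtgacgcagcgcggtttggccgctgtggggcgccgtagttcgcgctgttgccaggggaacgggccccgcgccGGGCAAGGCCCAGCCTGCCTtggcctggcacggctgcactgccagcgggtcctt

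The match at Ccng1, a cyclin gene and known p53 target, had 1 mismatch and its centre lay 106.5 bp from the summit at 40755365. Those at Stox2, which encodes a winged-helix protein, and at Zfp365, a zinc finger gene and known p53 target, had 2 mismatches each. Their centres lay 30.5 and 19.5 bp from the summits at 47352462 and 67912696. The window of Gm14102, an uncharacterised gene, had 3 mismatches, with its centre 9.5 bp from the summit at 132945581. This summit lies inside Fermt1, 455 bp downstream of its start. Fermt1 encodes kindlin-1, which activates integrins in keratinocytes. The match at Zdhhc1, which encodes a palmitoyltransferase family member, had 3 mismatches and was centred 56.5 bp from the summit at 105497113. The nearest 3KR summit was 877 kb away at Ccng1, 134 kb at Stox2, 94.0 kb at Zfp365, 194 kb at the Fermt1 site and 44.8 kb at Zdhhc1, so none of these summits stood close to the 200 bp limit.

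The other windows held no match within the limit. Among them, Phlda3, which encodes a repressor of Akt and is a known p53 target, and Tfrc, the transferrin receptor gene, are shown for comparison because both belong to the gene lists described further on. Their summits lay 0 and 63 bp from the start site, and their best matches had 5 and 9 mismatches. The stretches printed are parts of the 300 bases searched, and no match within the limit says only that these letters are not in that window.

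Phlda3 (chr1:135766030-135766134, plus strand): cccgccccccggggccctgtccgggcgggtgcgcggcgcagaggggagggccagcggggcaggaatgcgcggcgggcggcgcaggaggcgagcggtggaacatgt
Tfrc (chr16:32608778-32608888, plus strand): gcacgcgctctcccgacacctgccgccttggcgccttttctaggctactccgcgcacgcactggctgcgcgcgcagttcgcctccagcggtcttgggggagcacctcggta

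Matches were found in 5 of the 20 windows with a WT-only summit, or 25.0% (95% Wilson interval 11.2 to 46.9). Of all 32817 distinct promoter windows in the table, 1.38% held a match, the background for this count. That background counts each window once, whereas a summit inside several windows was given the window with the fewest mismatches. This choice can only raise the shares of the summit classes, and its part was not tested. Windows with a shared WT summit held one in 11 of 83 cases, or 13.3% (7.56 to 22.2), an interval that overlaps that of the WT-only windows. Windows with a 3KR-only summit held one in 30 of 1251 cases, or 2.40% (1.68 to 3.40). The median GC content was 55.5% in the WT-only windows, 65.3% in the shared, 62.7% in the 3KR-only and 52.7% in all windows, and its part in these shares was not tested. A match is a description of sequence and does not show that p53 bound there, and the WT-only count rests on few windows (3 matches with 2 or fewer mismatches).

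**Figure D1:**
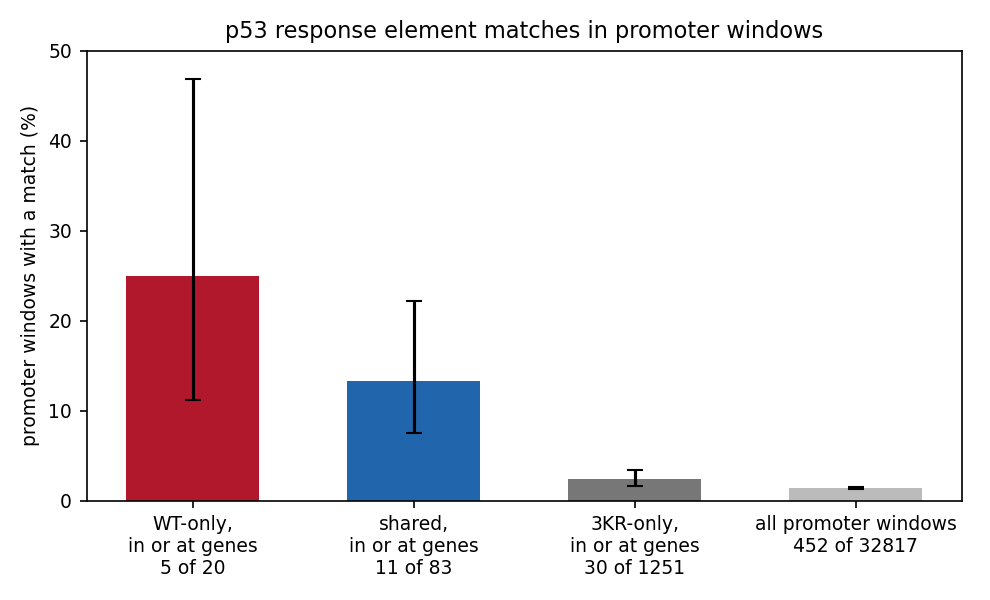
Share of 300-base promoter windows (vertical axis, percent) with a p53 response element match of 3 or fewer mismatches, for windows that hold a WT-only, shared or 3KR-only summit and for all windows. Bars are shares and error bars 95% Wilson intervals, with counts under each bar. A summit inside several windows is counted by the window with the fewest mismatches, and the bar for all windows counts each once. The WT-only bar stands at 25.0% with a wide interval. The 3KR-only bar stands at 2.40%, with an interval (1.68 to 3.40) that lies above the background of 1.38%.

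WT-only sites in or at genes were mostly lower scored entries of the WT list. The score is the peak caller's −log10 of a p or q value and is used only within the list. It ranged from 2.76 to 26.8 with a median of 7.59 (quartiles 5.63 and 10.2), and 68.3% of the members scored below the median of the list. Only 1 member, in Muc3, was among the 166 highest ranked summits, against 56 of the 458 shared sites in or at genes. Shared sites had a median score of 10.8 and reached 295. Whether a 3KR summit is listed nearby was used to choose the members and goes with the score in these lists, so this difference is given as a description.

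WT-only intergenic sites were chosen by the same lack of a 3KR summit, and in the rule they differ from the members only in location. Whether that lack selects scores alike in both locations was not tested. Their median score was 7.93 (quartiles 6.01 and 11.4) and their highest 125. The medians differed by -0.34 score units, members lower (2-sided permutation test of medians, 100000 resamples, p = 0.0461). The test shuffled sites of the combined WT list as if they were independent, so its p-value covers no spread between animals. Both classes were also chosen by a lack that goes with the score. No difference in binding between the locations is therefore concluded from this test. The difference in medians is small beside the spread of either class. It missed the threshold of 0.05 with a gene flank of 500 bp (p = 0.0629, permutation test) and with all gene biotypes (p = 0.133, permutation test).

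**Figure D2:**
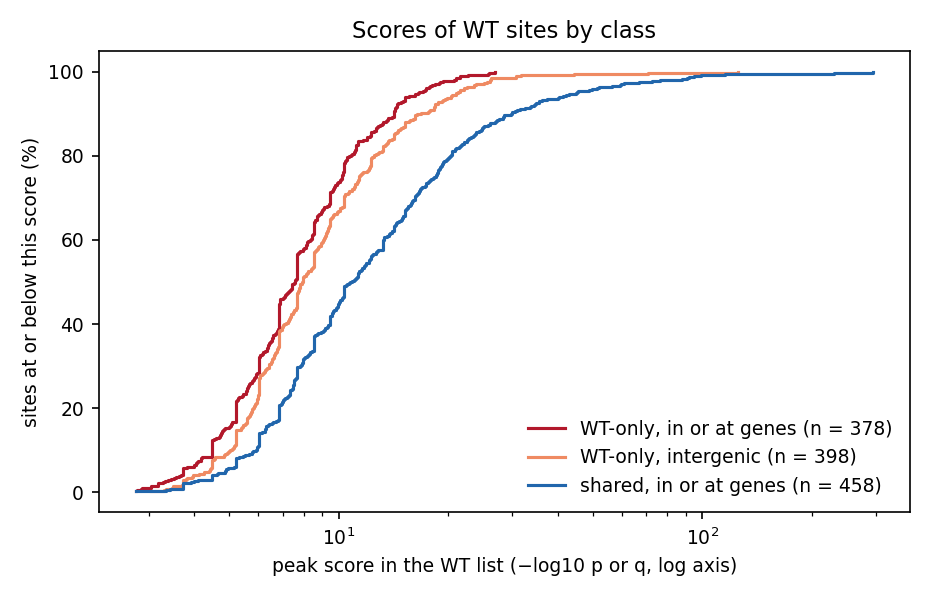
Cumulative share of WT sites (vertical axis, percent) at or below each peak score (horizontal axis, −log10 of p or q, log axis) for WT-only sites in or at genes, WT-only intergenic sites and shared sites in or at genes. Both WT-only curves rise at lower scores than the shared curve, with medians of 7.59, 7.93 and 10.8.

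The highest scored members lay in or beside genes of several kinds. The highest 3 were a summit at 137152338 on chromosome 5 inside Muc3, a mucin gene (score 26.8), one at 6882246 on chromosome 6, 178 bp outside Dlx5, a homeobox gene (25.8), and one at 47186867 on chromosome 13 inside Rnf144b, a known target that encodes a ubiquitin ligase (25.8). The nearest 3KR summit was 49.2, 754 and 6.72 kb away in that order. Next came sites inside Pik3r2, a regulatory subunit gene of phosphoinositide 3-kinase (22.6), Nedd4l, a ubiquitin ligase gene (21.5), and Arid1b, which encodes a chromatin remodelling subunit (21.5). Sites in Ptprs, a receptor phosphatase gene (21.0), and in Hspg2, which encodes the basement membrane proteoglycan perlecan (20.7), followed. The others of the highest 20 scored between 16.5 and 19.4. They lay in Hs6st3, Plcg1, Ripk4, Tmem131, Ubr4, Rxra, Elmod1, Myo18a, Srd5a1, Tns3 and Dcps, and outside but within 1 kb of both Clasrp and Zfp296. Ripk4 encodes a kinase needed for keratinocyte differentiation, Plcg1 a phospholipase downstream of growth factor receptors and Rxra a retinoid receptor. Of these 20 sites, those at Dlx5 and Zfp296 alone were within 1 kb of a gene end, at 178 and 185 bp.

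Most members lay deep inside genes. There were 352 inside a gene body and 26 outside one within 1 kb. Of the 378, 54 were within 1 kb of a gene end, or 14.3% (95% Wilson interval 11.1 to 18.2), 28 of them inside the gene and 26 outside. Shared WT sites in or at genes were at a gene end in 150 of 458 cases, or 32.8% (28.6 to 37.2), and 3KR-only sites in or at genes in 1841 of 3769, or 48.8% (47.3 to 50.4). The odds ratio for lying at a gene end was 0.342 for WT-only against shared sites (95% Woolf interval 0.242 to 0.485) and 0.175 against 3KR-only sites (0.130 to 0.234). Restricted to shared sites with scores like those of the members, the first was 0.268. These ratios are a description with no test, because the members were selected on the lack of a nearby 3KR summit and 3KR summits in or at genes were often at gene ends, so the rule itself bears on this position. The intervals cover the counting of sites in the lists, not the spread between animals.

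Start sites could be placed for the genes of 301 members. Of these, 34 lay within 1 kb of a start, or 11.3% (8.20 to 15.4), and the median distance to the nearest start was 26.7 kb (quartiles 7.39 and 82.0). For shared sites the share was 129 of 365, or 35.3% (30.6 to 40.4), with a median distance of 9.37 kb. For 3KR-only sites it was 1650 of 3069, or 53.8% (52.0 to 55.5), with a median of 0.524 kb. The median of the WT-only sites was the farthest from a start of the 3 classes, a difference given as a description. The members closest to a gene end included those at Phlda3 (0 bp), at Tk1, which encodes thymidine kinase (11 bp), and at Edaradd, an adaptor gene of ectodysplasin signalling (15 bp). Further ones were at Zfp365 (34 bp), Zdhhc1 (51 bp), Ccng1 (56 bp), Fam47e (58 bp), Tfrc (63 bp), Palmd (66 bp) and Art4 (74 bp). Their scores ranged from 4.46 at Tfrc and Edaradd to 15.2 at Zfp365.

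**Figure D3:**
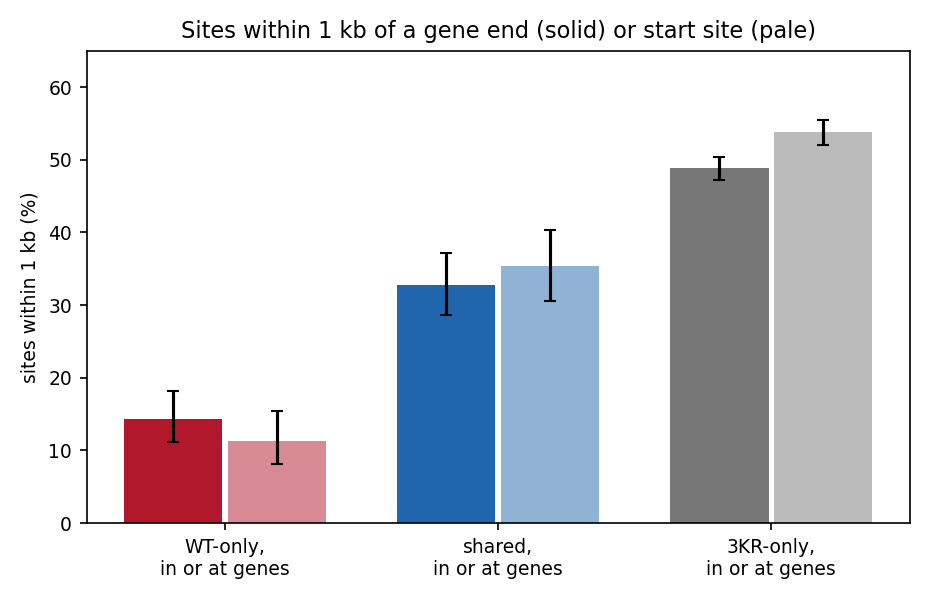
Share of sites in or at genes (vertical axis, percent) within 1 kb of either gene end (solid bars) or of an annotated start site (pale bars, sites with a placed start only), for WT-only, shared and 3KR-only sites. Error bars are 95% Wilson intervals. The WT-only bars, 14.3% and 11.3%, are the lowest and the 3KR-only bars, 48.8% and 53.8%, the highest of the 3 classes.

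The genes around these sites had a longer median than those around shared sites. The median length of the gene around the 352 sites inside gene bodies was 103521 bp (quartiles 48933 and 193768), against 69769 bp for the 383 shared sites inside gene bodies. The ratio of the medians was 1.48. It is likewise given with no test, since the position of a site in its gene is not independent of the rule. All protein-coding genes had a median length of 17.2 kb, while genes of 138 kb or more hold 50% of all gene bases. The median of 103521 bp at WT-only sites lies above the first of these lengths and below the second.

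In all, 348 protein-coding genes held a member, 1.59% of the 21887 in the table, and 14 members were held by 2 or more genes. Shared WT sites were held by 2.14% of genes and 3KR summits by 17.3%, and these 3 shares are the background for the counts of gene lists. A 3KR summit elsewhere, more than 200 bp from the member, was found in or within 1 kb of 159 of the 348 genes, or 45.7% (40.5 to 50.9). The other 189 held none. The 3KR list is the longer of the 2. With only as many of its highest scored entries as the WT list has, 557 sites met the rule. The share was then 92 of 507 genes, or 18.1%. That is another set of genes, and the background of 17.3% does not apply to it. A shared WT site was present in or at 48 of the 348. The median length was 83.6 kb for the 348 genes and 31.3 kb for all genes with a 3KR summit. The part of gene length in the share of 45.7% was not tested. From the site itself, the nearest 3KR summit was at a median of 50.3 kb (quartiles 15.4 and 140 kb). It was within 1 kb for 21 sites, within 10 kb for 67 and beyond 100 kb for 126. The median for WT-only intergenic sites was 40.2 kb. The sites just past the 200 bp limit were in Klf13 (208 bp) and Psd3 (224 bp), and the shared sites just within it were at Rap2b (196 bp) and in Zfp462 (190 bp). At the 1 kb limit the members farthest outside a gene were at Phc1 (974 bp) and Zfp958 (922 bp), and the nearest sites left out were at Meis1 (1066 bp) and Gm42048 (1119 bp).

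Known p53 targets held WT-only sites at 12 of 116 genes, or 10.3% (6.02 to 17.2), beside 1.59% of all protein-coding genes. Shared WT sites were at 17 of the 116 (14.7%, background 2.14%) and 3KR summits at 46 (39.7%, background 17.3%). The median length of these targets, 17.6 kb, was close to the 17.2 kb of all genes. The count was 5 in the upper 50% of the WT list by score, and 19 with the 3KR list cut to the length of the WT list. Of all 21887 protein-coding genes, 117 and 507 held a member in these settings, against 348 in the main one. The background of 1.59% therefore does not apply to the counts of 5 and 19. Of the 12 genes, 6 also held a 3KR summit within 1 kb and 6 did not. Lists were chosen with results of these data known, so these counts describe the lists and are no independent support.

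Among regulators of p53 itself, 4 of 32 genes held a member (12.5%, 4.97 to 28.1, background 1.59%), namely Mdm2, Ccng1, Trp63 and Trp73. Mdm2, Ccng1 and Trp73 are also counted among the known targets above. Mdm2 encodes the ligase that degrades p53 (chromosome 10, 117688875 to 117710758). Its WT-only summit at 117710100 scored 4.17 and lay 658 bp downstream of the start, with a 3KR summit 7.64 kb away. Trp73, which encodes the p53 relative p73 (chromosome 4, 154056249 to 154139875), held 2 members inside the gene, at 154072097 (score 12.6) and 154102474 (10.7). A 3KR summit stood 428 bp from the first, so its WT-only status depends on a short distance, while the second was 30.8 kb from any. Trp63, the gene of p63, held a WT-only summit at 25801692 on chromosome 16 with a score of 6.13. The shared summits of Trp63 scored higher in the WT list, 49.7 and 16.6.

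Apoptosis genes held members at 3 of 34 (8.82%, 3.05 to 23.0, background 1.59%), namely Bbc3, Perp and Dapk1. Of the 34 genes, 8 are also on the list of known targets, Bbc3 and Perp among them. The site of Bbc3, which encodes the BH3 protein PUMA, scored 8.56 and was 79.2 kb from the nearest 3KR summit. Perp encodes a desmosomal protein of stratified epithelia that p53 and p63 induce. Its WT-only summit at 18844981 on chromosome 10 lay 90 bp outside the gene with a score of 9.70, and a 3KR summit stood 1.67 kb from it. Dapk1, a death-associated kinase gene, held a member 74.9 kb from its nearer end with a score of 14.2, and a 3KR summit 4.72 kb from that site. Phlda3, described above, scored 6.36, and a shared WT summit lay 6220 bp from it, so WT and 3KR both had a summit near that gene.

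Further known targets held their members inside the gene body. Arhgef3, which encodes a guanine nucleotide exchange factor (chromosome 14, 27114461 to 27403916), held 4, more than any other gene. They were at 27145198, 27301959, 27325600 and 27328648, with scores of 8.11, 8.15, 5.57 and 5.60, and the nearest 3KR summit to any of them was 47.7 kb away. The other WT summit of Arhgef3 was shared and scored 6.83 in WT. Rnf144b (chromosome 13, 47122720 to 47247991) held a second member at 47193215 with a score of 9.79, and 3 summits of its own in 3KR, all 3KR-only. At Rnf144b the lists therefore name different positions in the same gene. Tgfa, which encodes a ligand of the EGF receptor, held a member at 86222487 on chromosome 6 (score 14.5), 2.75 kb from a 3KR summit. Acad11, an acyl-CoA dehydrogenase gene, held one (9.29) at 1.35 kb from a 3KR summit, which is shared with a higher scored WT summit in the same gene. Slc12a4, a cotransporter gene, held one (5.24) at 58.5 kb from the nearest 3KR summit.

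**Figure D4:**
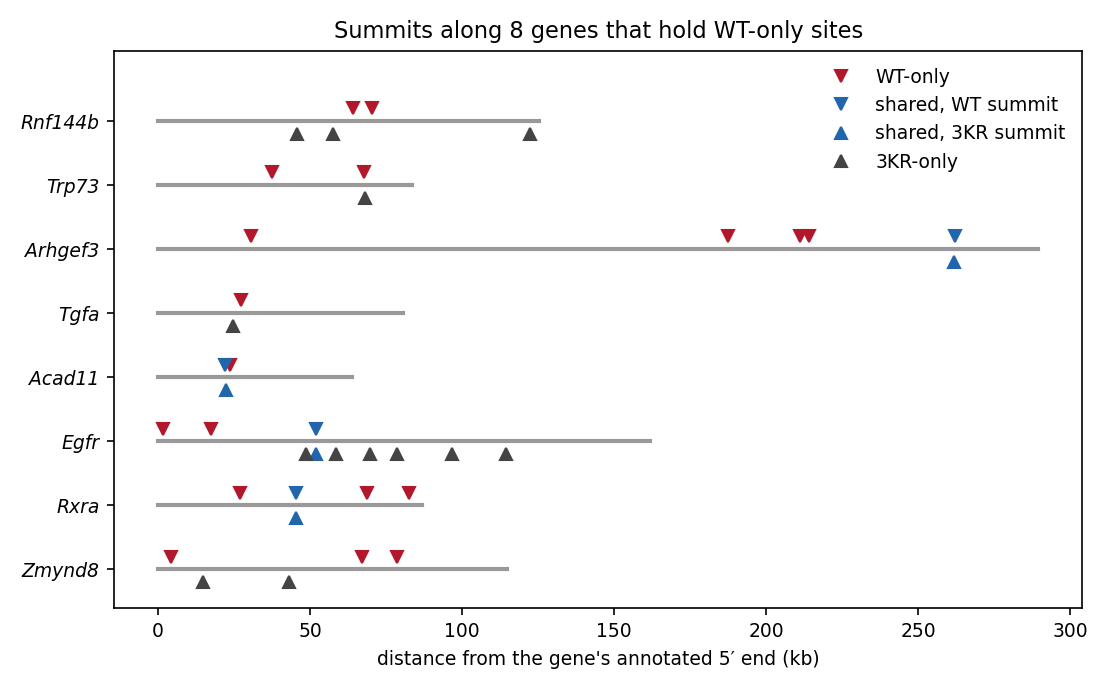
Summits along 8 genes that hold WT-only sites, by distance from the annotated 5′ end of the gene (horizontal axis, kb). Grey lines are the genes, triangles above them WT summits and triangles below them 3KR summits. Arhgef3 shows 4 WT-only summits and 1 shared pair, while Rnf144b shows WT and 3KR summits at different places and Egfr a WT-only pair upstream of its 3KR summits.

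Genes of basal epidermal identity held members at 6 of 32, or 18.8% (8.89 to 35.3), with shared sites at 8 of 32. Their median length was 45.8 kb, above the 17.2 kb of all genes. Egfr, the EGF receptor gene (chromosome 11, 16752203 to 16913907), held 2, at 1.62 and 17.3 kb from its start, with scores of 11.2 and 9.43. The 7 3KR summits of Egfr began 48.6 kb from the start, and 1 of them was shared with a WT summit (score 3.73). Grhl2, an epithelial transcription factor gene with no placed start, held a member 476 bp from its nearer end. It scored 12.9, and the nearest 3KR summit was 48.6 kb away. Lama3, which encodes a chain of laminin-332 in the basement membrane, held 2 (8.54 and 4.07), both more than 100 kb from 3KR summits. Cdh1, the E-cadherin gene, held one (6.83) with no 3KR summit in the gene. Itga6, the gene of the a6 integrin used for sorting, held one (4.85) only 0.670 kb from a 3KR summit.

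Genes of the cytoskeleton and cell junctions held members at 5 of 44 (11.4%, 4.95 to 24.0), namely Arhgef3, Arhgap24, Frmd4a, Frmd4b and Pxn. Their list has a median gene length of 201 kb. Shared WT sites were at 9 of the 44 and 3KR summits at 29 (65.9%, background 17.3%). Pxn, the paxillin gene, held 2 (11.1 and 6.83), Frmd4a, a scaffold gene, 2 (6.07 and 5.22), and Frmd4b 1 (13.5). In or within 1 kb of these genes, 3KR had 6 summits at Frmd4a, 3 at Pxn, 2 at Frmd4b, 1 at Arhgef3 and none at Arhgap24. Growth factor genes counted 3 of 40 (7.50%, 2.58 to 19.9), Egfr, Tgfa and Igf1r, the insulin-like growth factor receptor gene (score 7.67). Genes of Wnt, TGF-beta, Notch and Hippo signalling also counted 3, of 46 (6.52%, 2.24 to 17.5). They were Lrp6, a Wnt co-receptor gene (7.67), Smad6, an inhibitory SMAD gene (6.83), and Tead1, a partner gene of YAP (6.83). Metabolism genes counted 3 of 37 (8.11%, 2.80 to 21.3), Acad11, Tfrc (score 4.46) and Slc3a2, an amino acid transporter subunit gene (5.92). Of the 37 genes, 15 are also on the list of known targets, Acad11 among them. Arhgef3 and Tgfa are on that list too. All these shares stand beside the 1.59% of all protein-coding genes. Of the signalling and metabolism genes first named here, Igf1r, Tead1 and Slc3a2 also held 3KR summits (2, 3 and 2). Lrp6, Smad6 and Tfrc held none within 1 kb.

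In the remaining lists the intervals all include the 1.59% of all genes, so their counts show no difference from it in either direction. Cell cycle and arrest genes held 0 members of 37 (Wilson upper bound 9.41%), and epidermal differentiation genes 0 of 33 (10.4%), although shared WT sites were at 2 and 4 of them. DNA repair genes counted 1 of 32 (3.13%, interval 0.554 to 15.7), Fhit, a very long gene. Its site lay 794 kb from the nearer end of the gene and 85.6 kb from an annotated start. Housekeeping genes counted 1 of 29, Ppia, and markers of other skin cells 1 of 29, Lgr6, a stem cell receptor gene of hair follicles. Neuronal adhesion and synapse genes, with a median length of 969 kb, counted 3 of 79 (3.80%, 1.30 to 10.6), in Auts2, Ctnnd2 and Tenm2. This list had the longest genes of the 14, and its interval overlaps that of the known targets.

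**Figure D5:**
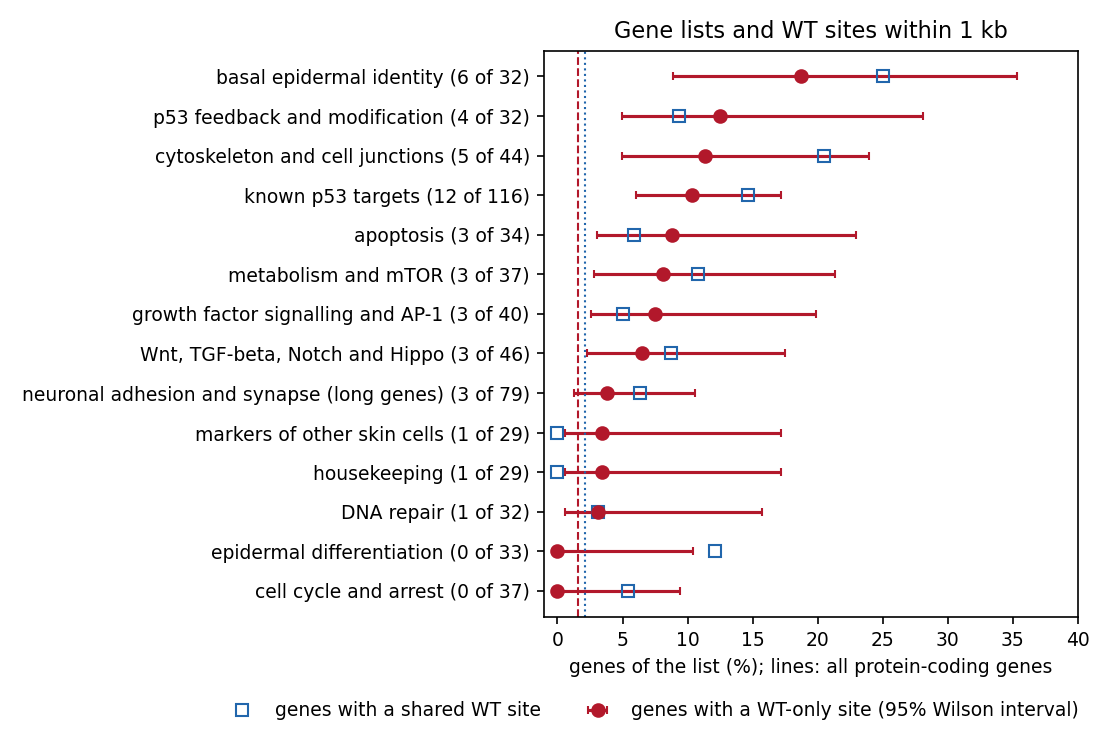
Share of the genes of each list (horizontal axis, percent) that hold a WT-only site within 1 kb (filled circles, 95% Wilson intervals) or a shared WT site (open squares), with counts for WT-only sites beside the names. The dashed and dotted lines are the shares over all protein-coding genes, 1.59% and 2.14%. Basal epidermal genes stand at 18.8% and known p53 targets at 10.3%, while cell cycle and differentiation genes stand at 0.

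Members were spread over the genome. They lay on all 19 autosomes, with 11 to 29 on each, and none on X or Y. Of the 348 genes, 39 held 2 or more members, 3 of these held 3 (Ano3, Rxra and Zmynd8) and Arhgef3 held 4. The sites of Rxra scored 17.7, 11.7 and 6.01 and those of Zmynd8, which encodes a chromatin reader, 14.4, 11.3 and 9.43. Further genes with 2 members and high scores were Fam160b2 (14.5 and 3.82), Zhx2 (14.3 and 3.73), Lrig3 (13.5 and 11.1), Tmem267 (13.2 and 6.57), Arid5b (12.9 and 10.2), Pdzd2 (12.2 and 5.78), Zfp609 (11.1 and 4.09) and Fry, whose lower scored site had 6.83. Lrig3, Fry and Zfp609 held no 3KR summit within 1 kb, whereas Arid5b and Tmem267 held 4 each. The sites of Tmem267 were 0.768 and 0.268 kb from 3KR summits, and 1 site each of Arid5b and Fam160b2 was 0.525 and 0.535 kb from one.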

How the data were processed

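p53 ChIP-seq had been done on 6 libraries, 3 per genotype. The deposited files are 2 summit lists, 1 per genotype, and the authors made them with BWA and MACS2 on mm10, per the submitters' processing notes. For versions, control, threshold and the combining of libraries, nothing is given in the sources used here. Each entry is 1 base with a score, deposited by the authors and read as −log10 of a p-value or q-value from its layout. Scores were compared only within the WT list, and depth is unknown.

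Gene bounds and promoter sequences came from RefSeq tables of GRCm38.p6. They hold no exons, so exon and intron were not told apart. Start sites come from the promoter table, which lacks some genes. Summits on unplaced and mitochondrial sequence were left out of classes by location. Ranks run from the highest score, with ties given the same rank. Shares have 95% Wilson intervals and cover counting error only. Location is given as odds ratios with Woolf intervals and gene length as medians, and the planned tests of both are not printed because the rule bears on position. Scores of the WT-only classes were compared by a permutation test of medians (100000 resamples), with Python 3.11.15 and scipy 1.17.1. The units of that test were sites, so it does not cover the spread between animals. Steps were tested on simulated data.

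Members and the 14 gene lists were chosen with earlier results of these data known. The genes named are those of the 20 highest scored members, list genes with a member, up to 15 genes with 2 or more members, those of the 10 members nearest a gene end, and those at the limits of the rule. A gene that this rule names is not reported here. Stox2, Fermt1, Gm14102, Ano3 and the genes of the other observations are named after their values were seen. Alternatives varied the same-site distance, gene flank, biotypes, list lengths, chromosomes, close sites, score range and host gene.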

Additional observations from a re-analysis of the deposited data

How the results depend on the processing

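No paired analysis was possible because each genotype is deposited as 1 combined list with no replicate columns, and for the same reason no library could be left out. Both odds ratios for gene ends kept their direction in the alternatives run, from 0.263 to 0.528 against shared sites and from 0.122 to 0.337 against 3KR-only sites. So did the difference in median log10 gene length between WT-only and shared sites, from 0.13 to 0.19. The score difference between WT-only classes lost its call with a gene flank of 500 bp (-0.28, permutation p = 0.0629) and with all biotypes (-0.24, permutation p = 0.133), and the cause was not tested. In the upper 50% of the WT list by score there were 120 members and 5 known targets with a member, since fewer sites enter. A match was in 2 of 6 promoter windows there, beside 5 of 20 in the main setting. With only as many of the highest 3KR entries as the WT list has, there were 557 members, since fewer 3KR summits enter. In that setting 19 known targets held a member, 8 of 45 windows matched, and 92 of 507 member genes, or 18.1%, held a 3KR summit. With all biotypes 8 of 30 windows matched and 40.1% of member genes held a 3KR summit. With 2 or fewer mismatches 3 windows matched, beside 0.326% of all windows. Alternatives for the counts of targets, 3KR summits and matches were chosen after seeing the data. The lists give no depth, which limits what a missing 3KR summit can show.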

Other observations

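Genes outside the fixed lists also held more than 1 WT-only site, named here after their values were seen. Deptor, which encodes an inhibitor of mTOR, held a pair of summits at 55197827 and 55200442 on chromosome 15, with scores of 5.91 and 6.46 and the nearest 3KR summit 382 kb away. Lpp, a gene of focal adhesions, held summits that scored 10.8 and 7.95. Foxp1, a forkhead gene, held summits at 99253043 and 99253528 on chromosome 6 with scores of 4.72 and 4.78, and Sun2, a nuclear envelope gene, at 79741272 and 79741495 on chromosome 15 with scores of 6.90 and 7.65. In Ano3 all 3 sites were far from a 3KR summit, at 471, 483 and 489 kb.

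Scores repeated among the members: 181 of the 378 had a score that another member also had, there were 232 distinct values, and 21 members shared the score of 7.67. A further 7 WT-only summits lay on unplaced or mitochondrial sequence and belong to no class by location.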
